A study of Mus musculus with 12 samples.

Results

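The 9 genes described here are melanocyte lineage genes and Otx2, out of 24060 genes listed for each of 12 rhabdoid tumors. The tumors came from mice of the genotype P0-CreC;Smarcb1flox/flox. They were taken by name, as the pigment cell program after which the TYR subgroup of human rhabdoid tumors is called. They are the transcription factors Mitf and Otx2, the receptors Ednrb and Kit, the pigment enzymes Tyr, Tyrp1 and Dct, and the melanosome proteins Pmel and Mlana. Rhabdoid tumors are aggressive childhood cancers driven by loss of SMARCB1, a core subunit of the SWI/SNF chromatin remodeling complex. In these mice both Smarcb1 alleles are floxed and Cre is driven by the P0 promoter, which is active in early neural crest cells and in the Schwann cell lineage. All tumors shared this genotype, and no normal tissue was among the samples. The labels place 4 tumors behind the eye (retro-orbital), 3 in the cheek, 3 in the meninges, 1 on the vestibular nerve and 1 on the trigeminal nerve. The age of each mouse was not given in the sources used here. The tumors arose in the animals and were deposited as whole tissue, so each sample mixes tumor cells with the cells of the host around and within them. The strains were kept on FVB/N, an albino background, so the pigment enzymes were read here only as RNA.

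Melanocytes arise from the neural crest, the same embryonic population that the P0 promoter marks in the head. MITF is the master regulator of the lineage, binds short E-box elements and turns on the pigment enzymes, while signals through KIT and EDNRB keep the precursors alive and let them spread. TYR, TYRP1 and DCT make melanin inside the melanosome, on fibrils built from PMEL, and MLANA is needed for PMEL to mature. OTX2 belongs to another branch of pigment biology, since it patterns the forebrain and directs the retinal pigment epithelium, where it acts together with MITF, and it also specifies choroid plexus and pineal cells. MITF is further used by osteoclasts and mast cells, KIT by mast cells, and EDNRB by glia and endothelium.

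Values are RPKM, in which reads are scaled to the length of the gene and to the size of the library, so that levels of different genes can be compared per length. Fragment totals inferred from the steps between RPKM values lay between 13206168 and 57128422 per tumor with a median of 27929720. Between 12575 and 14528 genes reached 1 RPKM. The paper states reads per sample over a narrower range, and which total entered the RPKM is not stated. All fragment numbers and fragment limits below rest on these inferred totals. Retro-orbital tumor 3 stood farthest from the others, with a mean Pearson correlation across genes of 0.811 with the other 11. Cheek tumors 2 and 3 were the closest pair with a correlation of 0.984, and the chi-square between their fragments, 35.4 per degree of freedom over 1983 genes, was the lowest of all pairs. It exceeded counting error, which does not show whether they are independent tumors, and they were kept apart because the labels list them as separate samples. Their identifiers share a first part, as do those of cheek tumor 1 with meninges tumor 1 and of retro-orbital tumor 3 with the trigeminal tumor, and whether such a pair came from 1 animal is not stated. The targeted gene Smarcb1 was read at 1.70 to 6.31 RPKM, a value over all its exons in mixed tissue that cannot check the deletion.

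The promoters of the 3 enzymes are shown because MITF acts on these genes through the E-box core CATGTG. The table used here, from RefSeq on GRCm38.p6, held 13 promoter windows for 7 of the 9 genes, those other than Pmel and Mlana. The lines for Tyr and Dct give the 250 bases before the RefSeq start site in the direction of the gene, and the line for Tyrp1 gives 30 bases around its core, with each CATGTG, on either strand, in capitals.
Tyr: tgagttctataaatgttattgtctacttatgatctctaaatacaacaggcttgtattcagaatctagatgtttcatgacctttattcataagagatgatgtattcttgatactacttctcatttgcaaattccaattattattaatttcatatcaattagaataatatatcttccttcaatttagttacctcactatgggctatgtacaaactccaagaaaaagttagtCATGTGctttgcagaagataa
Tyrp1: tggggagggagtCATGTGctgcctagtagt
Dct: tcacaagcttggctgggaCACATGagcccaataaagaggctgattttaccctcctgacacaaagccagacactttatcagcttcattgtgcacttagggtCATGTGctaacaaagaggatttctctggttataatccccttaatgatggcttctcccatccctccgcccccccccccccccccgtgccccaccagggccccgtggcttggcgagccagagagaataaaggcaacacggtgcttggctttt

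The Tyr stretch lies at chr7:87493513-87493762 on the minus strand, the Tyrp1 stretch at chr4:80834155-80834184 on the plus strand and the Dct stretch at chr14:118052247-118052496 on the minus strand. Counted from the RefSeq start site, the core begins at −21 in Tyr and at −46 in Tyrp1. For Tyrp1 that start site is base 80834213, which is 90 bases inside the gene as GENCODE draws it, so the core lies within the first exon of the GENCODE model that starts first and ahead of the RefSeq start. Dct holds 2 copies, at −150 on the gene's own strand and at −232 on the opposite strand. Of all 32851 windows of 250 bases before and 50 after a start site, 14.2% held the core on either strand. Among the other members, 1 Otx2 window held it, and no window of Mitf, Ednrb or Kit did. The element TAATCC, which OTX and CRX factors bind, was in 5 of the 13 windows, those being 1 each of Tyrp1, Mitf, Otx2, Ednrb and Dct, and in 7.06% of all windows. The palindromic E-box CACGTG was in none of the 13 windows and in 7.15% of all windows. The 3 motifs were searched separately and their matches did not share bases in the members' windows. A match is a description of these letters and does not show binding.

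**Figure D1:**
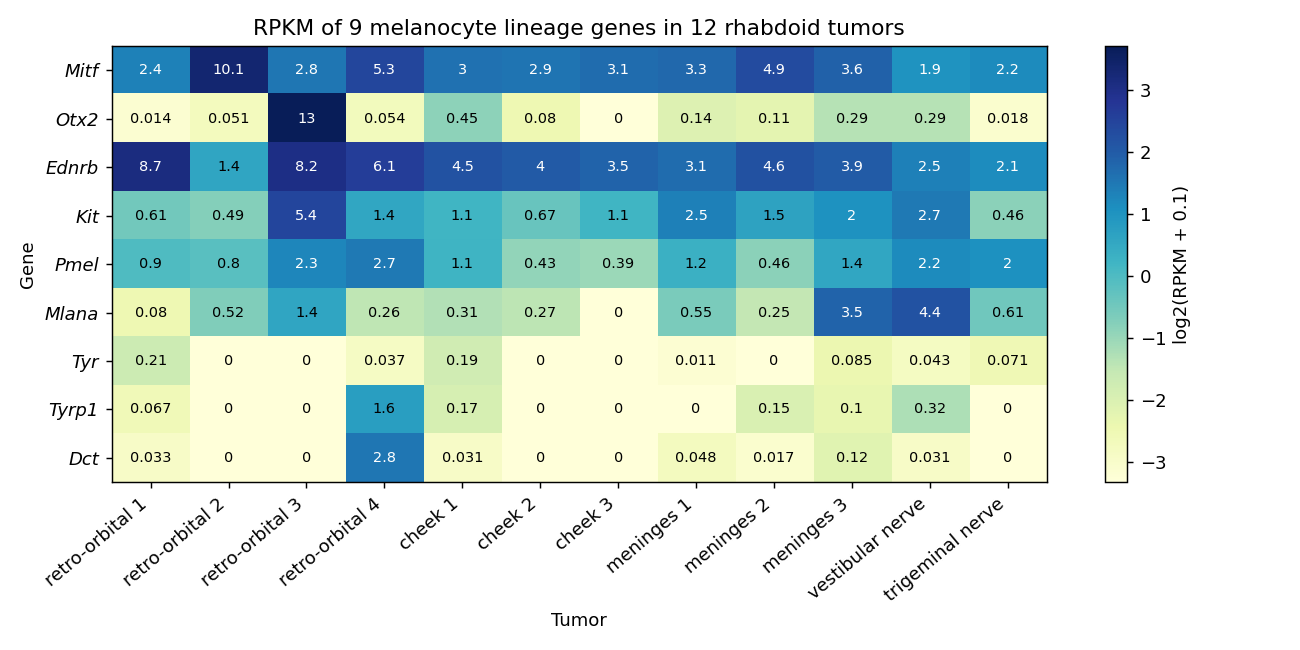
RPKM of the 9 genes (rows) in the 12 tumors (columns), printed in each cell, with color giving log2(RPKM + 0.1). Mitf and Ednrb are filled across the row, Otx2 is dark only in retro-orbital tumor 3 with 13.0 RPKM, and Dct and Tyrp1 are filled only in retro-orbital tumor 4 with 2.78 and 1.58 RPKM.

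Mitf was present in every tumor. It stood at 2.44, 10.1, 2.79 and 5.29 RPKM in the 4 retro-orbital tumors, at 2.98, 2.87 and 3.14 in the cheek tumors, at 3.30, 4.92 and 3.63 in the meninges tumors, at 1.90 in the vestibular tumor and at 2.16 in the trigeminal tumor. These levels rest on 215 to 1544 fragments per tumor. The highest tumor, retro-orbital 2, stood 1.92-fold above the next and 5.33-fold above the lowest, and the other 11 lay between 1.90 and 5.29 RPKM. Among all genes of a tumor, Mitf ranked above 50.1% of them in the tumor where it ranked lowest and above 73.2% where it ranked highest. Mitf (GRCm38 chromosome 6, 97807052 to 98021349, plus strand) is transcribed from several promoters, and a single value per gene does not separate the melanocyte isoform from the others.

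Otx2 was high in 1 tumor. In retro-orbital tumor 3 it reached 13.0 RPKM from 1995 fragments, the highest level of any of the 9 genes in any tumor. The other retro-orbital tumors had 0.0138, 0.0508 and 0.0544 RPKM, the cheek tumors 0.448, 0.0801 and 0, the meninges tumors 0.136, 0.114 and 0.294, the vestibular tumor 0.289 and the trigeminal tumor 0.0176. Each of these 11 values came from 34 fragments or fewer, and the peak tumor exceeded the next, cheek tumor 1, by 29.1-fold. In cheek tumor 3, where none was counted, the depth allows up to 0.0849 RPKM at the 3-fragment limit used here. Such limits, and all fragment numbers, cover counting error only. Exons of Otx2 (chromosome 14, 48657677 to 48673819, minus strand) overlap those of the antisense long noncoding RNA Otx2os1, which was at 0 in 11 tumors and at 0.0978 RPKM in meninges tumor 1. They also overlap the GENCODE model Gm49154 on the same strand, which was not analysed here and whose reads strand could not separate from those of Otx2.

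The enzymes, which carry out pigment synthesis itself, were at or near 0 in most tumors. Tyr, the rate-limiting oxidase of melanin synthesis, was at 0.212, 0, 0 and 0.0367 RPKM in the retro-orbital tumors, at 0.192, 0 and 0 in the cheek tumors, at 0.0110, 0 and 0.0849 in the meninges tumors, at 0.0426 in the vestibular tumor and at 0.0714 in the trigeminal tumor. Its largest fragment number was 19, in retro-orbital tumor 1, and no tumor reached 1 RPKM.

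Dct and Tyrp1, which act downstream of Tyr in the same pathway, were both high in 1 tumor. Retro-orbital tumor 4 had 2.78 RPKM of Dct from 259 fragments and 1.58 RPKM of Tyrp1 from 180 fragments. Dct was at 0.0326, 0 and 0 RPKM in the other retro-orbital tumors, at 0.0312, 0 and 0 in the cheek, at 0.0482, 0.0168 and 0.124 in the meninges, at 0.0311 in the vestibular tumor and at 0 in the trigeminal tumor. Retro-orbital tumor 4 thus exceeded the next tumor, meninges 3, by 22.4-fold, although that tumor had only 5 fragments. Tyrp1 was at 0.0670, 0 and 0 in the other retro-orbital tumors, at 0.166, 0 and 0 in the cheek, at 0, 0.152 and 0.102 in the meninges, at 0.319 in the vestibular tumor and at 0 in the trigeminal tumor. The gap for Tyrp1 was smaller, 4.96-fold over the vestibular tumor with 25 fragments. In the same tumor Tyr had 5 fragments and 0.0367 RPKM, so the 3 enzymes did not rise together.

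In retro-orbital tumors 2 and 3 and cheek tumors 2 and 3 all 3 enzymes were at 0. There the 3-fragment limit lay between 0.0159 RPKM, for Tyr in retro-orbital tumor 3, and 0.1004 RPKM, for Dct in cheek tumor 3, so lower levels were not detectable at this depth. Tyr lies at chromosome 7, 87424771 to 87493512 (minus strand), Tyrp1 at chromosome 4, 80834123 to 80851719 (plus strand) and Dct at chromosome 14, 118012790 to 118052244 (minus strand).

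Pmel, the fibril protein of the early melanosome, was read in every tumor at a low level. It was at 0.901, 0.799, 2.28 and 2.69 RPKM in the retro-orbital tumors, at 1.08, 0.432 and 0.391 in the cheek, at 1.16, 0.464 and 1.37 in the meninges, at 2.16 in the vestibular tumor and at 1.97 in the trigeminal tumor. The 2 highest values were those of retro-orbital tumors 4 and 3, the same tumors in which Dct or Otx2 was high. Exons of Pmel (chromosome 10, 128704195 to 128720238, plus strand) overlap exons of Cdk2 and Dgka on the opposite strand, which were read at 9.37 to 35.0 and 6.91 to 42.1 RPKM. Whether the counting used strand is not stated, so the reads behind Pmel may come in part from these neighbours and its level is uncertain.

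Mlana followed another order of tumors. It was highest in the vestibular tumor at 4.43 RPKM and in meninges tumor 3 at 3.53, and next in retro-orbital tumor 3 at 1.40. The other retro-orbital tumors had 0.0801, 0.517 and 0.263 RPKM, the cheek tumors 0.306, 0.266 and 0, the other meninges tumors 0.552 and 0.247 and the trigeminal tumor 0.615. With the shortest length that the values allow, 461 bases, the highest level stood for 58 fragments. Retro-orbital tumor 4, where Dct and Tyrp1 were high, was thus not high in Mlana.

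Ednrb, the receptor for endothelins, was the most abundant member in the median tumor. It was at 8.66, 1.41, 8.16 and 6.14 RPKM in the retro-orbital tumors, at 4.49, 3.97 and 3.55 in the cheek, at 3.11, 4.56 and 3.87 in the meninges, at 2.48 in the vestibular tumor and at 2.10 in the trigeminal tumor. Retro-orbital tumors 1, 3 and 4 stood above all 8 tumors of the other locations, and retro-orbital tumor 2 was the lowest of the 12. Kit, the stem cell factor receptor, was at 0.606, 0.492, 5.41 and 1.38 RPKM in the retro-orbital tumors, at 1.06, 0.674 and 1.05 in the cheek, at 2.48, 1.47 and 1.96 in the meninges, at 2.68 in the vestibular tumor and at 0.456 in the trigeminal tumor. Retro-orbital tumor 3 was highest, 2.02-fold above the vestibular tumor.

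By median over the 12 tumors the order was Ednrb at 3.92 RPKM, Mitf at 3.06, Kit at 1.22, Pmel at 1.12, Mlana at 0.411, Otx2 at 0.0969, Tyrp1 at 0.0335, Dct at 0.0240 and Tyr at 0.0238. Several neighbours in this order cannot be told apart. Ednrb was above Mitf in 8 of 12 tumors, Kit above Pmel in 7 and Otx2 above Tyrp1 in 7, while Tyrp1 was above Dct and Dct above Tyr in only 4 each, ties at 0 included among the rest. The clearer steps were Mitf above Kit and Pmel above Mlana, each in 10 of 12 tumors, and Mlana above Otx2 in 9.

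The question of regulators against enzymes was put within each tumor. Mitf exceeded the highest of Tyr, Tyrp1 and Dct in 12 of 12 tumors. On the log2 scale with 0.1 RPKM added, its ratio to the highest enzyme had a median of 4.19, was lowest in retro-orbital tumor 4 at 0.91 and highest in retro-orbital tumor 2 at 6.68. Thus the tumor with the most Mitf had no enzyme fragment, and the tumor with the next most Mitf had the most Dct and Tyrp1. Otx2 exceeded the highest enzyme in 6 of 12 tumors, with a median log2 ratio of 0.30. The ratio was 7.04 in retro-orbital tumor 3, where the enzymes were at 0, and −4.22 in retro-orbital tumor 4, and between −1.46 and 0.91 in the other 10, where both sides of the ratio rest on few fragments. These are counts over tumors with no test.

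**Figure D2:**
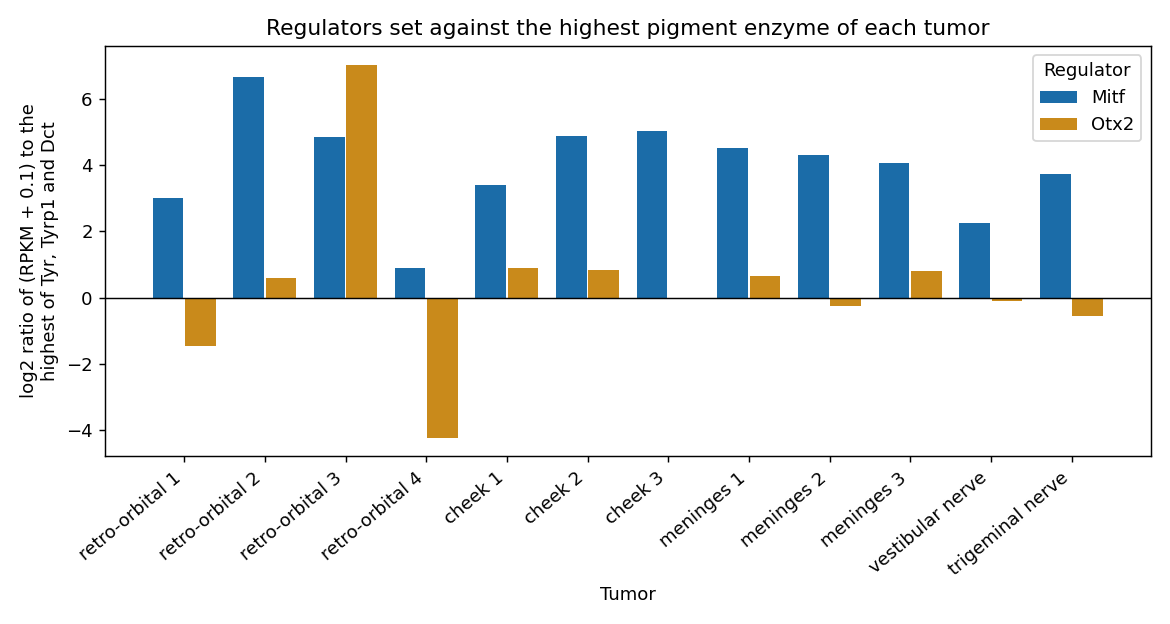
Log2 ratio of Mitf (blue bars) and Otx2 (ochre bars) to the highest of Tyr, Tyrp1 and Dct in each tumor, computed on RPKM + 0.1, with 0 meaning equal levels. Every Mitf bar is above 0, from 0.91 in retro-orbital tumor 4 to 6.68 in retro-orbital tumor 2, while Otx2 reaches 7.04 in retro-orbital tumor 3 and −4.22 in retro-orbital tumor 4.

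Across the 12 tumors neither regulator tracked an enzyme or melanosome gene beyond what permutation of the tumors gave. In the family of 10 relations on log2(RPKM + 0.1), every Pearson correlation had a Benjamini-Hochberg adjusted two-sided permutation p of 0.732, and the adjusted p of Spearman's rho lay between 0.290 and 0.827. For Mitf, Pearson's r was −0.38 with Tyr, 0.12 with Tyrp1, 0.27 with Dct, −0.23 with Pmel and −0.18 with Mlana, and Spearman's rho was −0.36, 0.09, 0.26, −0.20 and −0.29 in the same order. Without the 2 tumors of highest Mitf, retro-orbital 2 and 4, r was −0.32, −0.03, 0.24, −0.57 and −0.25.

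For Otx2, r was −0.12 with Tyr, −0.10 with Tyrp1, −0.14 with Dct, 0.42 with Pmel and 0.49 with Mlana, and rho was 0.07, 0.28, 0.23, 0.45 and 0.64. Without retro-orbital tumor 3 and cheek tumor 1, the 2 tumors farthest from its median, r was −0.05, 0.26, 0.05, 0.31 and 0.87. The strongest of these relations was Otx2 with Mlana, with permutation p of 0.124 for r and 0.0290 for rho before adjustment and of 0.732 and 0.290 after it. In the 10 tumors that remain without the 2 farthest, Otx2 was at most 0.294 RPKM.

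The question of location was put to the 10 tumors of the 3 locations with replicates. The main fit and the exact test took all of them as independent. Cheek 2 with cheek 3, and cheek 1 with meninges 1, share a first part of their identifiers. No member was called different between retro-orbital, cheek and meninges tumors. Of the 9 genes, Mitf, Ednrb, Kit and Pmel passed the filter of at least 1 RPKM in at least 3 of these tumors, and 0 of these 4 were called by limma at an adjusted p under 0.05 in the test over the 3 locations, which called 6 of 14745 genes (0.0407%). Retro-orbital against cheek tumors called 4 genes (0.0271%), retro-orbital against meninges 3 (0.0203%) and cheek against meninges 7 (0.0475%), again with 0 of the 4 members. The limma adjusted p over the 3 locations was 0.722 for Mitf, 0.803 for Ednrb, 0.711 for Kit and 0.509 for Pmel, and the unadjusted p was above 0.2 for each. At an unadjusted p under 0.05 the limma test over the 3 locations held 2110 of 14745 genes and 0 of the 4 members. The pairwise comparisons held 1765 genes for retro-orbital against cheek, 1348 for retro-orbital against meninges and 2501 for cheek against meninges, with 0 of the 4 members each time. With 4 members tested, a count of 0 cannot be told from these shares of all genes.

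Fold changes are differences of log2(RPKM + 1), a scale that makes changes at low levels look smaller than they are. Mitf was higher in retro-orbital than in cheek tumors by 0.46 (SE 0.39) and than in meninges tumors by 0.16 (SE 0.39). Ednrb was higher by 0.32 (SE 0.45) and 0.38 (SE 0.45) in the same comparisons, and Pmel by 0.66 (SE 0.35) and 0.37 (SE 0.35). Kit was 0.36 (SE 0.47) higher in retro-orbital than in cheek tumors and −0.26 (SE 0.47) relative to meninges tumors. Each of these differences is smaller than 2 standard errors.

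For the cheek minus meninges comparison the differences were −0.30 (SE 0.42) for Mitf, 0.05 (SE 0.48) for Ednrb, −0.61 (SE 0.51) for Kit and −0.29 (SE 0.38) for Pmel. The 3 cheek tumors lay below the 3 meninges tumors without overlap for Mitf and Kit, 2 of the 4 members that passed the filter, as they did for 19.2% of all 14745 genes. Blocking on the shared first part of the tumor identifiers, the Kit difference became −0.73 with a limma adjusted p of 0.0488. That block fit had a consensus correlation of 0.93 and called 4243 of the 14745 genes in the same comparison, but not Mitf, Ednrb or Pmel. The call of Kit cannot be told from that share of all genes. Among the fitted tumors only cheek 2 with cheek 3 and cheek 1 with meninges 1 share a first part of their identifiers.

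Since 5 members did not pass the filter, each member was also tested by itself. This was an exact two-sided permutation test of the F statistic on log2(RPKM + 0.1) over 4200 labelings. Its p was not adjusted over the members. Exchanging the cheek and meninges labels leaves F unchanged, so every p is above 0.000238. The exact p was 0.597 for Mitf, 0.978 for Otx2, 0.812 for Ednrb, 0.506 for Kit, 0.938 for Tyr, 0.962 for Tyrp1, 0.895 for Dct, 0.192 for Pmel and 0.293 for Mlana. For Otx2, Tyrp1 and Dct the retro-orbital group held both the highest tumor and tumors at or near 0. Mean levels in the 4 retro-orbital tumors were 3.29 ± 6.50 RPKM (SD) for Otx2, 0.413 ± 0.782 for Tyrp1 and 0.702 ± 1.38 for Dct, with the SD above the mean each time. A single library decided the value for Ednrb, whose exact p was 0.0286 without retro-orbital tumor 2. The limma adjusted p of Ednrb over the 3 locations was 0.244 there. For Pmel the exact p was 0.0133 after quantile normalization, with a limma adjusted p of 0.383.

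**Figure D3:**
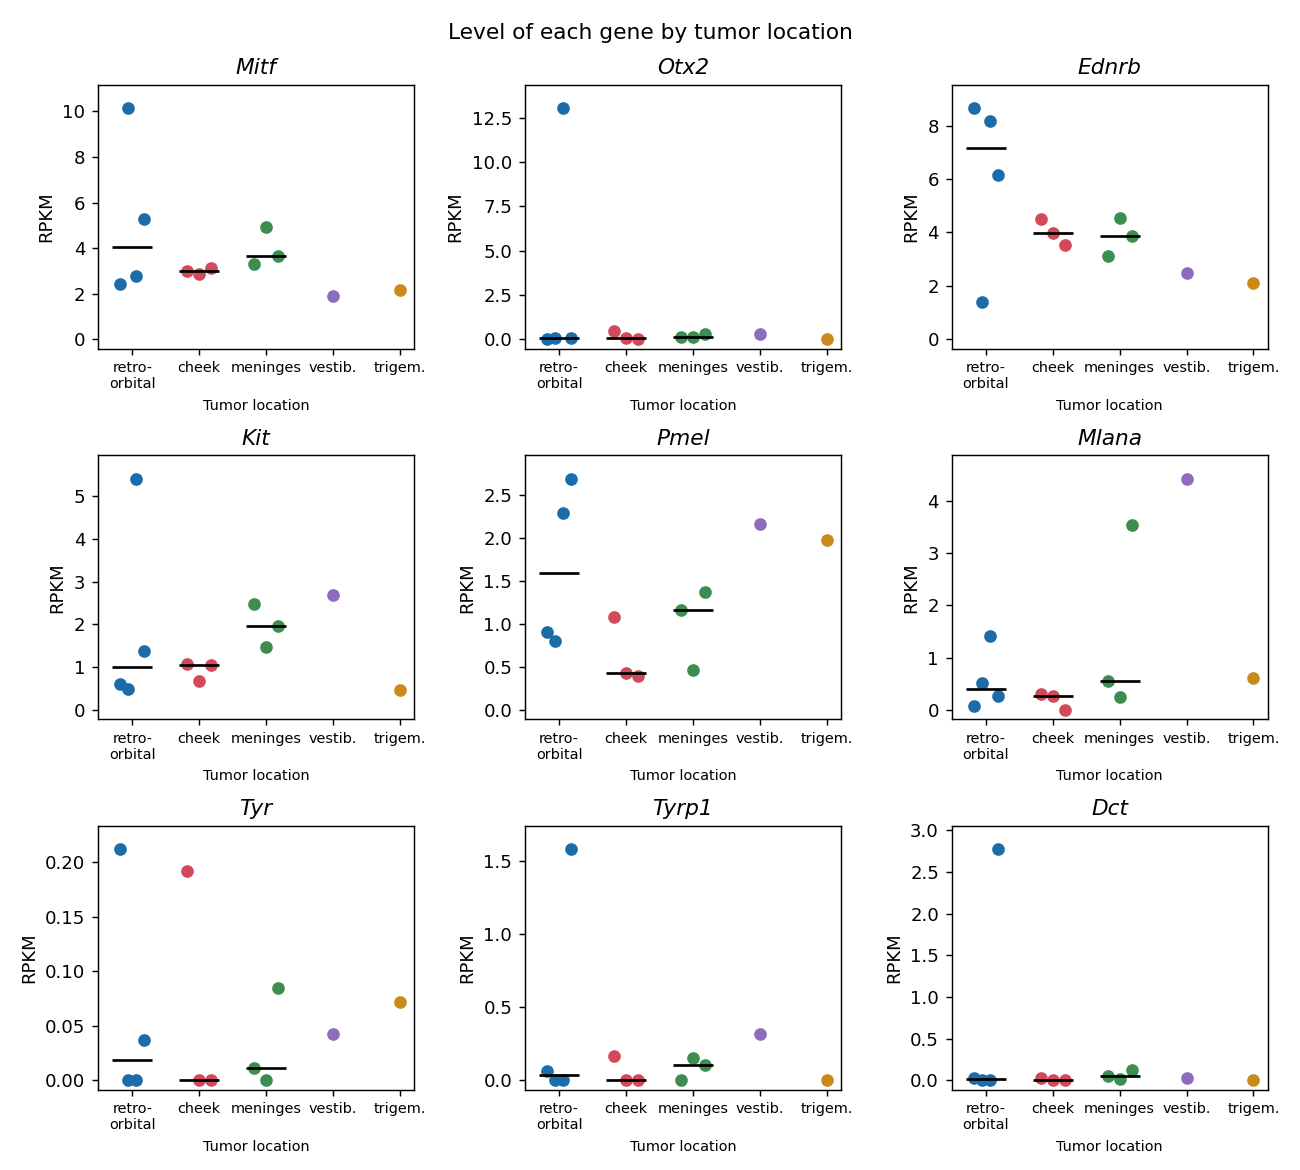
RPKM of each gene (linear axes, 1 panel per gene) by tumor location, with 1 point per tumor and a bar at the median of the locations that have replicates. Otx2, Tyrp1 and Dct each owe the height of the retro-orbital column to 1 of 4 points, and 3 of 4 retro-orbital points of Ednrb stand above all other locations with the fourth, at 1.41 RPKM, below them.

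Retro-orbital tumors 2 and 3, the peaks of Mitf and of Kit and Otx2, also stood apart in genes of other cells. Ednrb and Tyr peaked in retro-orbital tumor 1, and Dct, Tyrp1 and Pmel in retro-orbital tumor 4. These tumors were highest on none of the 14 lists, as were cheek tumor 3 and the trigeminal tumor. Retro-orbital tumor 4 was second on the retinal pigment epithelium list with 18.8 RPKM. The share of other cells in any of these peaks was not tested. In bulk tissue, more cells of a type and more RNA per cell cannot be told apart. Retro-orbital tumor 2, the peak of Mitf, had a summed level of 1289 RPKM over the 4 osteoclast genes, among them Ctsk at 805 and Acp5 at 472 RPKM, both enzymes of bone resorption. The other 11 tumors summed to between 22.0 and 262 RPKM on that list. The sum of 262 was in cheek tumor 1, where Mitf was at 2.98 RPKM. Retro-orbital tumor 4, second in Mitf at 5.29 RPKM, summed to 61.6. Of the 4 genes 3 were highest there of the 12 tumors, while the fourth, the calcitonin receptor Calcr, was at its lowest there, 0.317 RPKM against up to 59.0 in meninges tumor 1. The 5 macrophage genes summed to 1523 RPKM in the same tumor, of which Ctss made up 1083, against at most 1252 in the others. Of the 5 genes 3 were highest there. Ptprc was at 33.3 RPKM against 51.5 in retro-orbital tumor 4. Aif1 was at 17.3, below its median of 19.2, against 53.4 in meninges tumor 2. Patterns over the 12 tumors were compared by Pearson's r on log2(RPKM + 1) among 15020 genes. The 3 genes most like Mitf were Pik3r5 (0.95), Hk3 (0.95) and Arl11 (0.94), each also highest in retro-orbital tumor 2. The part of these cells in the Mitf value was not tested.

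Retro-orbital tumor 3, the peak of Kit and of Otx2, had a summed level of 150 RPKM over the 10 mast cell genes, with 8 of the 10 at their highest of 12 tumors and none at 0. They included the proteases Tpsab1 at 49.9 and Tpsb2 at 30.0 RPKM and the histamine-forming enzyme Hdc at 26.6. The next tumor on that list, meninges 3, summed to 46.5 RPKM with Kit at 1.96, and the lowest, retro-orbital 2, to 1.39. The vestibular tumor, second in Kit at 2.68 RPKM, summed to 7.10. The share of the Kit value that comes from mast cells was not tested. The 3 genes most like Kit were Jag2 (r 0.95), Ly6g6e (0.93) and Gdpd2 (0.92). Those most like Ednrb were Flt4 (0.94), Mmrn2 (0.92) and Abcc9 (0.92), those most like Pmel were B3gnt7 (0.93), Snord71 (0.92) and Ttc5 (0.90), and those most like Mlana were Ppip5k1 (0.94), Gm15284 (0.93) and Btbd3 (0.93). Otx2, Tyr, Tyrp1 and Dct were too low for this ranking.

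**Figure D4:**
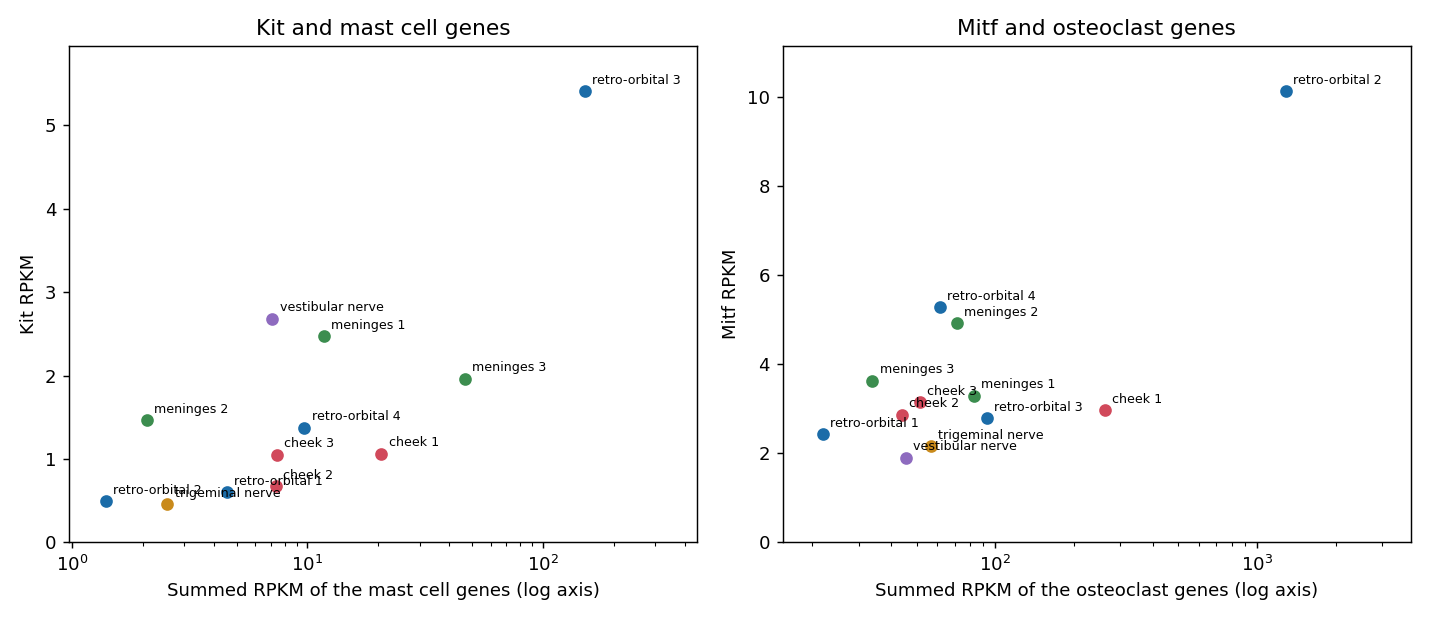
Left, Kit RPKM (linear axis) against the summed RPKM of 10 mast cell genes (log axis). Right, Mitf RPKM against the summed RPKM of 4 osteoclast genes, with 1 labeled point per tumor, colored by location. Retro-orbital tumor 3 is highest on both axes at left, with 5.41 and 150 RPKM, and retro-orbital tumor 2 on both at right, with 10.1 and 1289 RPKM. In each panel the tumor second on 1 axis is not second on the other.

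The other genes of the melanosome ranged from absent to abundant. Of 11 further melanosome genes, Slc45a2, Oca2, Gpr143, Trpm1 and Mc1r, which serve pigment cells, stayed below 1 RPKM in all 12 tumors, with the highest value at 0.318 RPKM for Gpr143. Slc24a5, an ion exchanger of the melanosome, was instead at 0.251 to 3.39 RPKM and reached 1 RPKM in 11 of 12 tumors. Gpnmb, which pigment cells and macrophages express, ran from 0.739 to 14.3 RPKM, and Mlph, which links melanosomes to their motor, from 0.0576 to 1.86. Genes of vesicle transport that many cells use were present, such as Myo5a at 5.30 to 46.3 RPKM, Rab27a at 1.03 to 9.69 and Rab38 at 0.707 to 18.5. Of these 11 genes 5 were tested by limma over the locations and 0 were called, with a median F of 0.79 against 1.46 over all genes tested, and 1, Rab27a, had an unadjusted p under 0.05. In retro-orbital tumor 4, the tumor with Dct and Tyrp1, Slc45a2 was at 0.0488 RPKM and Oca2 at 0, while Slc24a5 was at 3.27, its second highest value.

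Among the 11 regulators of melanoblasts and members of the Mitf family, Sox10, which acts upstream of Mitf in melanoblasts, was at 0.0878 to 3.56 RPKM and at 0.197 in retro-orbital tumor 4. Pax3, another upstream factor, was at 0.159 to 43.1 RPKM, with 43.1 and 38.5 in cheek tumors 2 and 3 and 16.0 in retro-orbital tumor 4. The relatives of Mitf were present throughout for Tfe3 (11.9 to 25.5 RPKM) and Tfeb (3.04 to 11.3), while Tfec ran from 0.187 to 30.3. By limma 10 of these genes were tested and 0 called, with a median F of 2.28, and Lef1, Snai2 and Tfeb had an unadjusted p under 0.05.

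Some but not all ligands of the receptors were highest in retro-orbital tumor 3. Kitl, the ligand of Kit, stood at 17.6 RPKM there and at 1.01 to 7.21 in the others, and Edn2, a ligand of Ednrb, at 23.1 against at most 0.936. Ece1, which processes endothelins, reached 132 RPKM in the same tumor. Edn3, the endothelin that melanoblasts use, was at 1.58 RPKM there, below its median of 1.85. It was instead highest in retro-orbital tumor 4 at 6.93 RPKM, the tumor with Dct and Tyrp1. Of 8 ligands and related receptors 7 were found, 5 tested by limma and 0 called, at an unadjusted p under 0.05 as well, with a median F of 1.79, and Asip was not analysed here.

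Around Otx2, retro-orbital tumor 3 was also the highest of the 12 for Sox2 at 24.9 RPKM and Six3 at 2.12, and held Pax6 at 11.2 and Otx1 at 5.73. Crx, the photoreceptor relative of Otx2, was at 0 there and at most 0.0884 RPKM in any tumor. Otx1 was most abundant in cheek tumor 1 at 12.8 RPKM and meninges tumor 1 at 10.4, where Otx2 was at 0.448 and 0.136. Of these 16 partners and forebrain or eye field factors 7 were tested by limma and 0 called, with a median F of 0.94, and Lhx2 and En1 had an unadjusted p under 0.05.

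Genes of the cell types that use Otx2 were checked in the same tumor. The 8 retinal pigment epithelium genes summed to 18.1 RPKM in retro-orbital tumor 3 and to 18.8 in retro-orbital tumor 4. Over the 12 tumors these sums ran from 3.54 to 33.0 RPKM, highest in meninges tumor 1. In retro-orbital tumor 3, 1 of the 8 genes, Rgr, was at its highest of 12 tumors with 1.54 RPKM. The defining gene Rpe65 was at 0 there and at most 0.244 in any tumor. The 6 photoreceptor genes summed to 2.52 RPKM in retro-orbital tumor 3 and to at most 2.58. The 8 choroid plexus genes summed to 65.6 RPKM in retro-orbital tumor 3, of which Clic6 made up 54.4, and to 106 in the vestibular tumor, of which Ttr made up 96.1. None of the 4, 4 and 1 genes that limma tested on these lists was called, nor had an unadjusted p under 0.05, with median F of 2.01 for retinal pigment epithelium, 0.50 for choroid plexus and 1.41 for photoreceptors. The 7 astrocyte genes summed to between 61.5 and 570 RPKM, highest in meninges tumor 3, and 1 of them, Aqp4, was highest in retro-orbital tumor 3 at 121 RPKM.

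Retro-orbital tumor 3 further held the most RNA of the 5 endothelial and pericyte genes, 312 RPKM against 16.9 to 75.8, mostly from Rgs5 at 256. Ednrb was at 8.16 RPKM in that tumor and at its lowest, 1.41, in retro-orbital tumor 2, which also had the lowest sum on that list. Its highest level, 8.66 RPKM, was in retro-orbital tumor 1, where the sum was 39.8 RPKM. Over the remaining cell type lists 0 genes were called by limma, with 6 mast cell, 6 Schwann cell, 7 astrocyte, 5 endothelial and pericyte, 5 macrophage, 3 osteoclast and 6 skeletal muscle genes tested. Their median F was 0.22 for mast cells, 3.38 for Schwann cells, 3.81 for astrocytes, 0.37 for endothelial cells and pericytes, 3.43 for macrophages, 4.37 for osteoclasts and 2.35 for skeletal muscle. Over all 14 lists 73 genes were tested, 0 were called and 15 had an unadjusted p under 0.05, beside 2110 of all 14745 genes. The 6 skeletal muscle genes summed to between 5.60 and 481 RPKM, highest in cheek tumor 2, and the 7 Schwann cell genes to between 31.4 and 208, highest in meninges tumor 2. The part of these cells in the members' values was not tested.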

How the data were processed

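RNA of 12 tumors was read by RNA-Seq (ribosomal RNA depletion, stranded libraries). The authors used STAR for alignment against mm10 and HTSeq to count fragments of uniquely mapped reads per RefSeq gene, and deposited the result as 1 RPKM value for each gene in each tumor. Which gene length and which read total entered the RPKM, and whether counting used strand, are not stated. The submitters' processing notes also name bcl2fastq 2.17, edgeR and limma. Rows with a date in place of a gene symbol (27) were never named.

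Location came from the labels, and the molecular subgroup of each tumor, which they do not give, was not compared. Replicate numbers are names only, and p-values set differences against the spread between these tumors. Except in the fit with the identifier block, tumors that share a first part of their identifiers were taken as independent. The 9 genes and the 14 gene lists were chosen with earlier results of these data known. Named genes are the members, the genes of those lists and the 3 genes most like each member.

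The 10 tumors of 3 locations were fitted with limma 3.58.1 in R 4.3.3 on log2(RPKM + 1), with a trended, robust prior, a filter of 1 RPKM in 3 tumors and Benjamini-Hochberg adjustment at 0.05. Members were tested by exact permutation and relations by 100000 resamples, on log2(RPKM + 0.1). Fragments were recovered from the steps between RPKM values, whole within 0.005, at the smallest length (annotated for Pmel) that makes all 12 values whole. On simulated data over 14745 genes, the test over locations recovered 2.5% of 200 genes changed by 1 on the log2 scale in meninges tumors only, 71.5% at 2 and 93% at 4. Other steps ran in Python 3.11.15 (pandas 2.3.3, numpy 2.4.6, matplotlib 3.10.9 and scipy 1.17.1). Positions are from GENCODE on GRCm38, the build of mm10.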

Additional observations from a re-analysis of the deposited data

Results flagged for a closer look

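In the 4 retro-orbital tumors, the only location with enough tumors for this screen, 7 of 23 values had 1 tumor far from the other 3, with a gap to its nearest neighbour, as a share of the range, above Dixon's 95% critical value for 4 samples. The gaps were taken on linear RPKM. Chance gives about 1 in 20 for normally distributed values, a rate that skewed RPKM values need not follow. Of the 9 members, Otx2 stood out in tumor 3 (gap 0.997 of the range, 13.0 RPKM), Tyrp1 in tumor 4 (0.958, 1.58 RPKM) and Dct in tumor 4 (0.988, 2.78 RPKM). Of the 14 summed gene lists, tumor 3 stood out in ligands and related receptors (0.84, 192 RPKM), choroid plexus genes (0.933, 65.6 RPKM) and mast cell genes (0.944, 150 RPKM), and tumor 2 in osteoclast genes (0.944, 1289 RPKM). On log2(RPKM + 0.1), a scale added after the data were seen, 2 of the 7 remained past the critical value, Otx2 (0.936) and Dct (0.916). Tyrp1 (0.818), ligands and related receptors (0.64), choroid plexus (0.698), mast cell (0.592) and osteoclast genes (0.647) did not.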

How the results depend on the processing

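Over all alternatives run, 0 adjusted p from the limma test over locations passed 0.05 for Mitf, Ednrb, Kit or Pmel (0.131 to 0.961). The exact p by location was not adjusted. Among 117 values it passed only for Ednrb without retro-orbital 2 (0.0286) and Pmel under quantile normalization (0.0133), and otherwise ran up to 1. No adjusted p of a correlation passed (lowest 0.113). Mitf stayed above the enzymes in every tumor under each alternative, and Otx2 in 8 of 12 against the mean of the enzymes and in 5 or 6 of 11 when 1 tumor was left out. The causes were not tested. Counts of called genes over the 3 locations were 10 without a filter, 2802 with the identifier block and 19 with a plain prior. Retro-orbital against cheek gave 2 without a filter, with size factors or with the block, retro-orbital against meninges 7 without a filter and 6 with a plain prior, and cheek against meninges 2 with a pseudocount of 0.1, 18 without a filter, 13 under quantile normalization, 4243 with the block and 22 with a plain prior. Leaving out 1 tumor gave 0 to 198 genes over the 3 locations, 0 to 147 for retro-orbital against cheek, 0 to 41 for retro-orbital against meninges and 0 to 527 for cheek against meninges. The highest of these came without cheek 1, or without retro-orbital 3 for retro-orbital against meninges, and 0 genes over the 3 locations came without cheek 2, cheek 3 or meninges 1.

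Directions that turned were all of values past no threshold. Under quantile normalization the log2 difference was 0.045 for Kit retro-orbital minus meninges, 0.087 for Mitf and 0.046 for Pmel cheek minus meninges, and rho of Otx2 with Tyr was −0.13. With size factors rho of Mitf with Tyrp1 was −0.041. In the 10 tumors of replicated locations Mitf gave r 0.019 and rho 0.091 with Pmel, and r 0.11 and rho 0.12 with Mlana. Leaving out 1 tumor, differences ran from −0.061 to 0.16 for Ednrb cheek minus meninges, −0.11 to 0.60 for Kit retro-orbital minus cheek and −0.17 to 0.39 for Mitf retro-orbital minus meninges. Likewise r ran from −0.23 to 0.46 for Mitf with Tyrp1 (rho −0.12 to 0.35), −0.090 to 0.61 for Mitf with Dct, −0.29 to 0.057 for Mitf with Mlana, −0.25 to 0.29 for Otx2 with Tyr (rho −0.10 to 0.32), −0.16 to 0.28 for Otx2 with Tyrp1 and −0.19 to 0.0018 for Otx2 with Dct. The exact p by location ran from 0.0286 to 0.993 for Ednrb. Tumors with 1 to 5 fragments of an enzyme limit what these relations can show.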
